A study of Mus musculus with 11 samples.

Results

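Axon guidance ligands and receptors were described in RNA from mouse kidney cells, primary fibroblasts by their label, taken without and after unilateral ureteral obstruction (UUO). UUO is surgery that ties off the ureter of 1 kidney and is a common model of renal fibrosis. A gene belonged to the group when its name began with Sema, Plxn, Efna, Efnb, Robo, Ntn or Unc5, or with Epha or Ephb and a digit, or was Nrp1, Nrp2 or a Slit gene. Of 13985 genes in the deposited gene table, 56 did: 17 semaphorins, 8 plexins, 2 neuropilins, 5 ephrin-A and 3 ephrin-B ligands, 4 EphA and 5 EphB receptors, 2 Slits, 4 Robo receptors, 3 netrins, 2 Unc5 receptors and Unc50. Unc50 entered through its first letters alone and is a membrane protein of the secretory pathway, not a netrin receptor, which leaves 55 without it. By role, 30 members are ligands and 25 are receptors.

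The study holds 3 groups of C57BL/6 mouse cells: control kidneys (n = 3), kidneys 3 days after UUO (n = 4) and kidneys 7 days after it (n = 4). No transgene or drug is named for any group. Per the labels' protocols, kidneys were digested and fibroblasts were enriched in culture medium with serum, and no sort on a surface marker is described. Whether replicates were separate animals is not stated, so a p-value here reflects the spread among samples, part of which may be technical. Values are FPKM, a fragment number corrected for how long a transcript is and how many fragments a library has, and the depth of the libraries is unknown.

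Guidance cues were first described in the growing nervous system, where a ligand on or from one cell steers the growth cone of an axon by pulling back or extending its actin skeleton. Semaphorins signal through plexins, often with a neuropilin as co-receptor, ephrins signal through Eph receptor tyrosine kinases on touching cells, Slits signal through Robo receptors, and netrins signal through Dcc, neogenin and Unc5 receptors. The same molecules pattern blood vessels and the ureteric bud of the embryonic kidney and act on migrating fibroblasts and leukocytes.

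The labelled cell type was checked against marker genes. All 9 fibroblast markers were listed, and their summed level was 49.5 to 61.9 FPKM in the control libraries, 478 to 994 FPKM at day 3 and 1429 to 3591 FPKM at day 7. The 12 proximal tubule markers summed to 12598 to 15363 FPKM in the controls, 954 to 1793 FPKM at day 3 and 542 to 699 FPKM at day 7. The 15 macrophage markers summed to 362 to 574, 3546 to 5825 and 4026 to 4688 FPKM in the same order. Control libraries thus held far more tubule than fibroblast marker RNA, against their label. Each day 3 library also had a higher tubule than fibroblast sum. A single gene, Kap, held much of the tubule sums, with a mean of 11118 of 14405 FPKM in controls and 894 of 1406 at day 3. The libraries after UUO held much macrophage RNA. The 12 endothelial markers lay at 147 to 197, 200 to 222 and 136 to 226 FPKM, and the 5 listed neutrophil markers at 33.8 to 42.0, 16.8 to 163 and 40.3 to 86.6 FPKM. Of 12 neuron and glia markers 4 were listed, summing to 0.950 to 8.36 FPKM over all libraries, and Rbfox3, Snap25, Syt1 and Sox10 were among the 8 not listed. Replicate 3 stood apart on both days: its fibroblast sum was the lowest of its day, and at day 3 its macrophage sum (5825 FPKM) and its neutrophil sum (163 against 16.8 to 24.7 FPKM) were the highest. Genes of the mitochondrial genome took 25.4 to 35.9% of summed FPKM in controls and 4.27 to 7.94% after UUO. In bulk samples such as these, fewer cells of a type and less RNA per cell cannot be told apart, and the part of any of these shifts in the changes below was not tested.

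**Figure D1:**
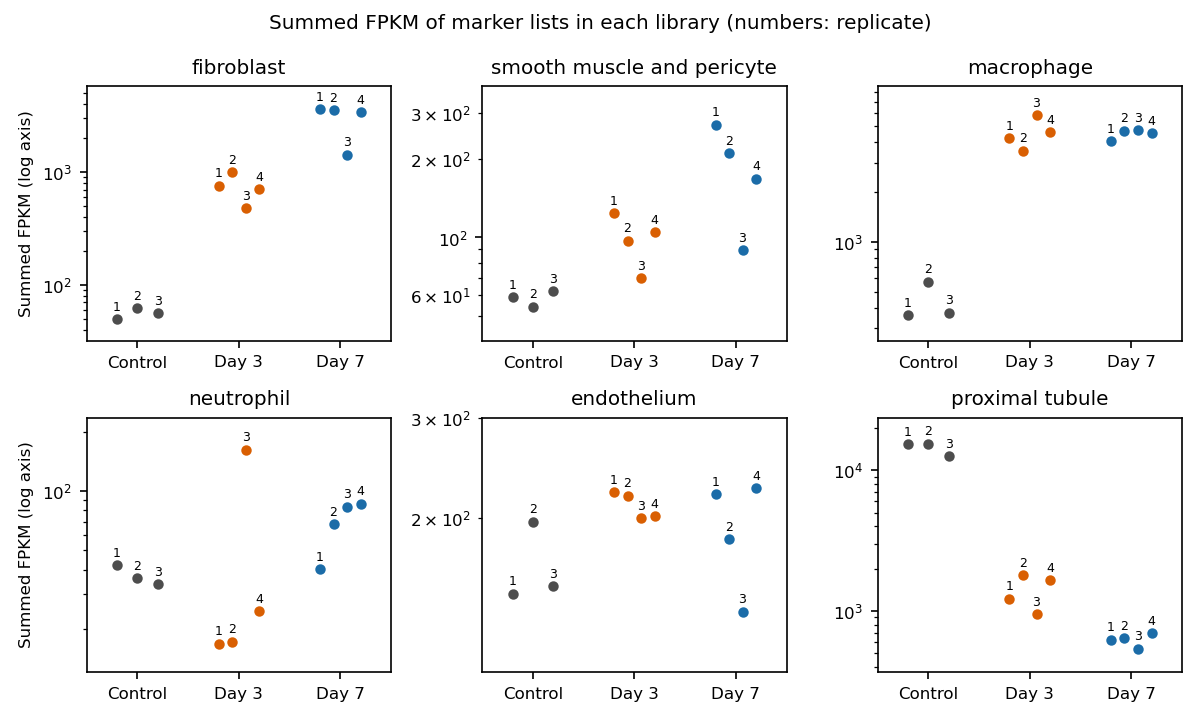
Summed FPKM (log axis) of 6 marker lists in each library, with 1 point per library, groups on the horizontal axis and the replicate number beside each point. Fibroblast markers climb from 49.5 to 61.9 FPKM in controls to 1429 to 3591 FPKM at day 7, proximal tubule markers go the other way, and replicate 3 is the lowest fibroblast library on both days.

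Most guidance genes that passed the test were higher after obstruction, and more so at day 7 than at day 3. Changes were tested with limma on log2(FPKM + 1) for the 13428 genes whose mean over the 11 libraries reached 0.5 FPKM, with Benjamini-Hochberg adjustment over all of them, and a gene was called at an adjusted p under 0.05. Because 1 was added to each value, a log2 fold change understates the change of genes near or under 1 FPKM. Of the 56 members, 52 passed the minimum level, and Ephb1, Efnb3, Robo2 and Sema3e did not. At day 3 against control, 26 members rose and 5 fell, or 59.6% of those tested, against 65.3% of all genes (44.4% higher and 21% lower). At day 7 against control, 34 rose and 6 fell, or 76.9%, against 69.8% of all genes (46.3% higher and 23.5% lower). These shares lie near those of all genes, since the groups differed in most of the transcriptome. The median log2 fold change of the members was 0.40 at day 3 and 0.64 at day 7, beside 0.26 and 0.28 over all genes tested. With median centring the members' medians were 0.06 and 0.34, and as TPM 0.94 and 1.2.

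Between the days a larger share of the members than of all genes passed. At day 7 against day 3, 14 members were higher and 2 lower, or 30.8% of those tested, against 15.7% of all genes (7.37% higher and 8.37% lower). Their median log2 difference was 0.16, beside -0.04 over all genes; it was 0.05 without day 3 replicate 3, 0.09 without day 7 replicate 4, and 0.02 over the 35 members with a mean of at least 2 FPKM. Library values of the 2 groups did not overlap for 34 members at day 3 and 37 at day 7 against control, 65.4% and 71.2% of those tested beside 64.7% and 68.5% of all genes. For day 7 against day 3 they did not overlap for 17, or 32.7% beside 20.4%.

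Ligands and receptors were counted apart, and the difference between them was not tested. Among 28 ligands tested, 12 rose and 4 fell at day 3 (57.1% called), and 16 rose and 4 fell at day 7 (71.4%). Among 23 receptors tested, 14 rose and 0 fell at day 3 (60.9% called, 0 lower also at an unadjusted p under 0.05). At day 7, 18 rose and 2 fell (87%). All genes were called at 65.3% and 69.8%, with 21% lower at day 3 and 23.5% lower at day 7. The minimum level is a mean over all libraries, most of them after UUO, so it can drop genes that are highest in controls. The receptors Ephb1 and Robo2, left out by it, were below every control in every library after UUO. After median centring Epha1 and Robo3 passed as lower at day 3. Scaling bears on all of these counts: centring each library on its median turned the day 3 count into 17 higher and 9 lower, and rescaling to TPM into 40 and 1. Over all genes, 67.9% of day 3 calls and 66.3% of day 7 calls were higher as deposited, against 44.3% and 47.7% with median centring, 48.8% and 50.1% with quantile-normalized values and 82.9% and 81.3% as TPM. Median centring moved the all-gene median to -0.07 at day 3 and -0.03 at day 7, and TPM moved it to 0.70 and 0.77. Changes of at least 1 in log2 against control were called for 10 members at day 3, where 25.9% of all genes reached that size, and for 16 at day 7, where 30.7% did; each kept its call and its direction under every scaling tried in which it was tested.

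**Figure D2:**
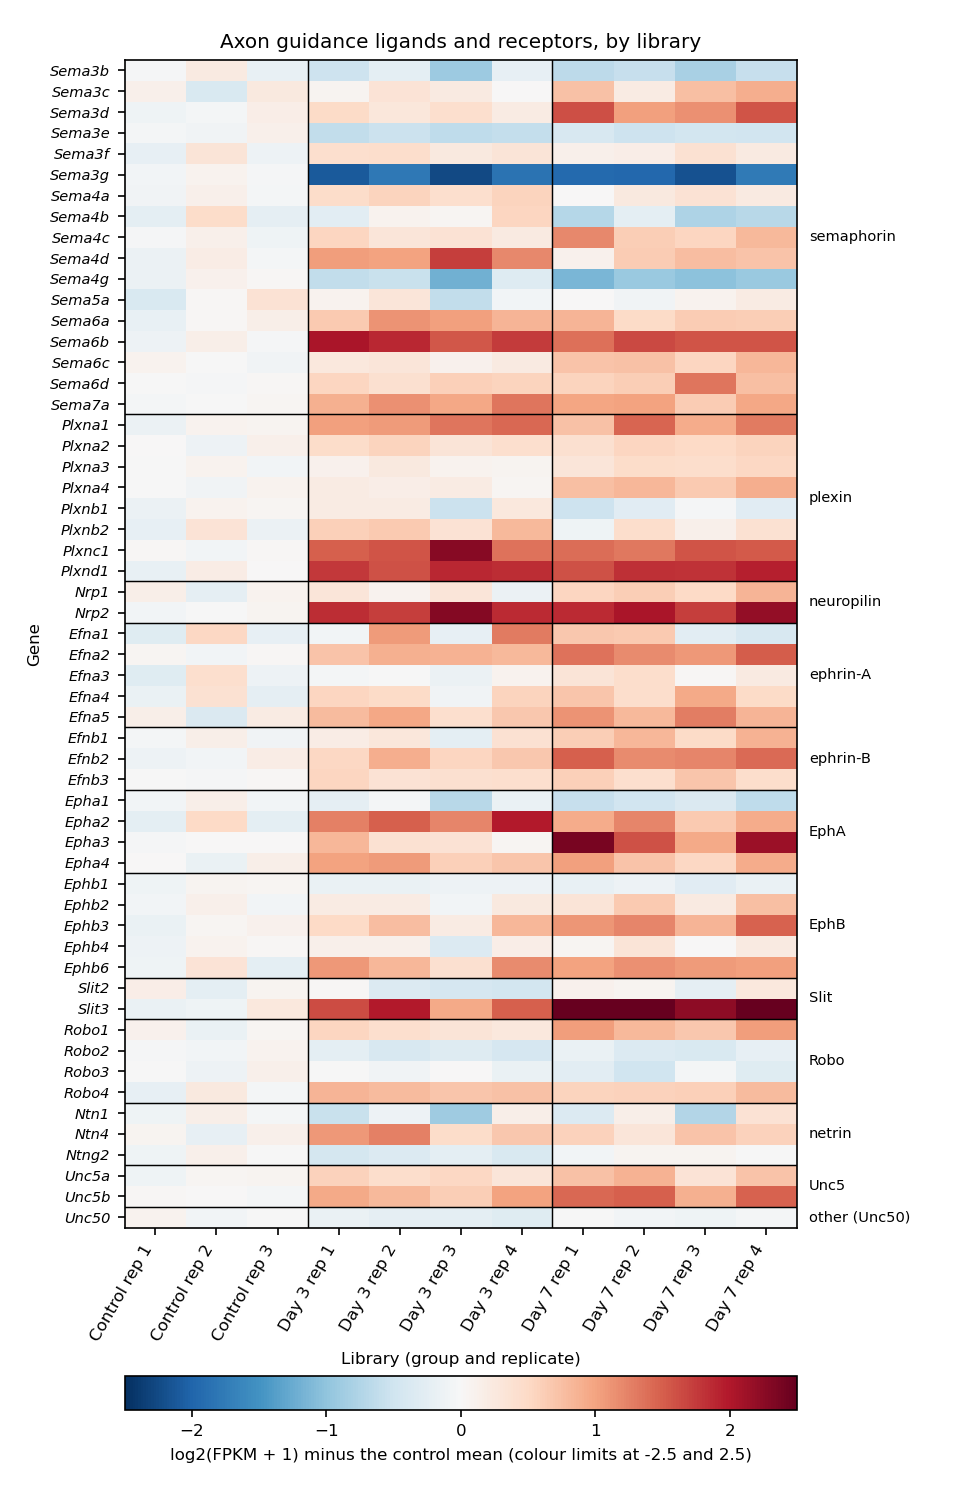
Level of each of the 56 members in each of the 11 libraries, as log2(FPKM + 1) minus the mean of the 3 control libraries (red higher, blue lower), with genes in rows by family and libraries in columns by group and replicate. Slit3, Nrp2, Plxnd1 and Sema6b are red in all 8 libraries after UUO, Sema3g is blue in all 8, and Epha3 and Sema3d redden mainly at day 7.

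The 4 members with the largest called log2 changes from control were Slit3, Sema3g, Nrp2 and Sema6b. Their promoters are printed because the first and the last 2 rose and Sema3g fell. A reader can thus compare the sequence around the RefSeq starts of genes that went opposite ways. The sequences are RefSeq's, build GRCm38.p6, 250 bases before to 50 after the annotated start, read 5′ to 3′ on the gene's strand, with capitals marking any match to the motifs listed after them.
Slit3, chr11:35121206-35121505, + strand: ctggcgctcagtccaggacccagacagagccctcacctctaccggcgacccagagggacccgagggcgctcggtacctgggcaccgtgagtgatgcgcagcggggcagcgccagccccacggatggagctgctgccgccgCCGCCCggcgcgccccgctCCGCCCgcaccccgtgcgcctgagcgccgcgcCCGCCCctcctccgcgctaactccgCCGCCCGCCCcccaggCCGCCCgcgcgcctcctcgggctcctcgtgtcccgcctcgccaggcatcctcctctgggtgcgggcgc
Sema3g, chr14:31217623-31217922, + strand: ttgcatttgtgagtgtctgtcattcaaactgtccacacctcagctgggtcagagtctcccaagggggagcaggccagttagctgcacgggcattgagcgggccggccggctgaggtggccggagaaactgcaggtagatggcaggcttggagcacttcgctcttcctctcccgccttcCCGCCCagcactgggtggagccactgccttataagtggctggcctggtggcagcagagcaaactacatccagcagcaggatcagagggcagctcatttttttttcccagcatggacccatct
Nrp2, chr1:62703067-62703366, + strand: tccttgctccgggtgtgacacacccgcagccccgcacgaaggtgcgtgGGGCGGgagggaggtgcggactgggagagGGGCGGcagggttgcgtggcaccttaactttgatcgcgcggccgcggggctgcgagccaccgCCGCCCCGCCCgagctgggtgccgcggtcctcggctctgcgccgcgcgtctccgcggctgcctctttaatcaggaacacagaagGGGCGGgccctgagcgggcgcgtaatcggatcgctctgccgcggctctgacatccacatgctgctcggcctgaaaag
Sema6b, chr17:56133803-56134102, - strand: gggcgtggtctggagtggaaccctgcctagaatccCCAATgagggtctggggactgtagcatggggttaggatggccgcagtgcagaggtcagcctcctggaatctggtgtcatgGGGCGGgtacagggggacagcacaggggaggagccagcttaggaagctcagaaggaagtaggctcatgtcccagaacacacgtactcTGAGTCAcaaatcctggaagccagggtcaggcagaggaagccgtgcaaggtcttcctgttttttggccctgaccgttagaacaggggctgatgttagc
The motifs, searched on both strands with overlaps allowed, were the GC box GGGCGG, the CCAAT box CCAAT, the TATA box TATAAA, the AP-1 motif TGANTCA, the TEAD motif GGAATG and the E-box CACGTG. The Slit3 window held 6 GC boxes and the Nrp2 window 5, while the Sema3g window held 1, and the Sema6b window held 1 GC box, 1 CCAAT box and 1 AP-1 match. A match is a description of letters and not a binding site. Of the 56 members, 49 had an entry in the promoter table, and 73.5% of these held a GC box against 35.7% of all 32851 promoters. The 2 sets were chosen differently. A member with listed transcripts had 1 window, nearest the start of its most abundant day 7 transcript, whereas all promoters were every entry of 300 bases. For the other motifs the shares of member and of all promoters were 28.6% and 37.4% (CCAAT), 12.2% and 14.7% (TEAD), 4.08% and 7.81% (AP-1), 4.08% and 13.6% (TATA), and 2.04% and 7.15% (E-box). Member promoters had a median GC content of 64.7% and 19 CpG dinucleotides, beside 52.7% and 7 in all promoters of that length. The most abundant Slit3 transcript starts 232 bases and the most abundant Nrp2 transcript 385 bases from the start that the table uses. This distance was largest for Sema4d (4683 bases), Plxnb2 (2831 bases) and Sema4g (2792 bases). In the deposited values Slit3 starts at base 35121224. Most of its printed window, with the 6 GC boxes, therefore lies after that start and not ahead of it.

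Semaphorins were the largest family, and members of it went both ways. Class 3 semaphorins are secreted and need neuropilins for most of their signals, classes 4 to 6 span the membrane, and Sema7a is held by a lipid anchor. Of 16 tested, 7 rose and 3 fell at day 3, and 9 rose and 4 fell at day 7. That is 62.5% and 81.2% called, beside 65.3% and 69.8% of all genes. After median centring Sema3f, Sema4a and Sema6d at day 3 and Sema3c and Sema4d at day 7 no longer passed, and as TPM Sema3b and Sema4g at day 3 and Sema3b and Sema4b at day 7 did not.

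Sema6b, a transmembrane ligand of class A plexins, rose most among the semaphorins on the log2(FPKM + 1) scale, while by ratio of means Sema3d at day 7 was further from control (7.05 against 4.93). It measured 0.790, 1.17 and 0.916 FPKM in the 3 control libraries, 7.07, 6.17, 4.71 and 5.54 FPKM at day 3, and 4.06, 5.17, 4.82 and 4.84 FPKM at day 7. All 8 libraries after UUO lay above all 3 controls, and the days overlapped. Its log2 fold change was 1.80 (SE 0.13, adjusted p = 3.15e-07) at day 3 and 1.55 (SE 0.13, adjusted p = 6.21e-07) at day 7. Sema6a and Sema6d, its close relatives, went from 0.850 ± 0.204 and 0.473 ± 0.0281 FPKM (SD, n = 3) in controls to 2.49 ± 0.490 and 1.12 ± 0.127 at day 3 (n = 4) and 1.89 ± 0.301 and 1.66 ± 0.714 at day 7 (n = 4). Both rose on both days, and Sema6a lost its day 7 call under quantile normalization (adjusted p = 0.052). Sema6c stayed low, at 0.258 ± 0.0693, 0.473 ± 0.0857 and 1.05 ± 0.166 FPKM, and against control passed at day 7 only (log2 fold change 0.70, adjusted p = 3.16e-05); its day 3 value was 0.23 (adjusted p = 0.0532).

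Sema7a, the ligand of plexin C1, was at 5.25, 5.43 and 5.67 FPKM in controls, at 10.9, 13.2, 11.6 and 15.3 FPKM at day 3, and at 11.8, 11.95, 9.03 and 11.6 FPKM at day 7. Every library after UUO exceeded every control. The log2 fold change was 1.08 (SE 0.13, adjusted p = 1.69e-05) at day 3 and 0.90 (SE 0.13, adjusted p = 6.25e-05) at day 7.

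Sema4d, also named CD100, is abundant on leukocytes and signals through plexin B1, plexin B2 and CD72. Its FPKM was 9.83, 12.7 and 10.6 in controls, 23.6, 23.0, 38.7 and 26.6 at day 3, and 11.95, 17.7, 19.4 and 18.7 at day 7. The day 3 libraries stood above all others, led by replicate 3, which also had the highest macrophage and neutrophil marker sums of that day, and day 7 overlapped the controls. It rose at day 3 by 1.24 on the log2 scale (SE 0.20, adjusted p = 0.000145) and was lower at day 7 than at day 3 (-0.68, SE 0.18, adjusted p = 0.0264). Its day 7 value against control was 0.56 (adjusted p = 0.0238), and it did not pass without control replicate 1 or 3, without day 7 replicate 3 or 4, or after median centring (adjusted p up to 0.302). Without day 3 replicate 4 or day 7 replicate 1 the difference between the days did not pass either (adjusted p = 0.0554 and 0.0734).

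Sema4a, which acts on T cells and vessels, was at 12.99 ± 1.17 FPKM in controls and 18.7 ± 0.957 at day 3, where it rose (log2 fold change 0.49, adjusted p = 0.00178), and at 15.3 ± 1.60 at day 7 (0.21, adjusted p = 0.102). Sema4c rose at day 7 from 2.83 ± 0.301 to 5.73 ± 1.47 FPKM (0.79, adjusted p = 0.000596). Sema4b and Sema4g went the other way. Sema4b measured 8.19, 14.0 and 8.25 FPKM in controls, 8.08, 10.5, 10.2 and 14.8 at day 3, and 5.60, 8.12, 5.36 and 5.72 at day 7. Its day 7 libraries lay below the controls, by a narrow margin for replicate 2, and overlapped day 3. It was lower at day 7 than at day 3 (-0.71, SE 0.20, adjusted p = 0.0317), a call that ended without any 1 of day 3 replicates 2 and 4 and day 7 replicates 1, 3 and 4 (adjusted p 0.071 to 0.0923), and lower than control (-0.61, adjusted p = 0.0246), a call that ended without control replicate 2 (adjusted p = 0.135) and without day 7 replicate 1, 3 or 4.

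Sema4g, which like other class 4 members spans the membrane, was at 4.92, 6.12 and 5.72 FPKM in controls, 3.30, 3.44, 1.85 and 4.29 at day 3, and 1.96, 2.44, 2.22 and 2.46 at day 7. The controls were above every library after UUO. It fell at day 3 by 0.67 on the log2 scale (adjusted p = 0.00479) and at day 7 by 1.01 (SE 0.18, adjusted p = 0.000241). Over the same libraries the 12 proximal tubule markers and the 12 distal nephron markers fell at day 7, all of them in both lists; their part in the fall of Sema4g was not tested.

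Sema3g, a neuropilin-2 ligand known from vessels and podocytes, fell furthest on the log2(FPKM + 1) scale among members tested. It measured 22.6, 25.1 and 23.1 FPKM in controls, 4.70, 6.14, 4.11 and 5.79 at day 3, and 5.36, 5.31, 4.40 and 6.23 at day 7. No library after UUO came near a control, and the days overlapped. The log2 fold change was -2.002 (SE 0.14, adjusted p = 2.19e-07) at day 3 and -1.96 (SE 0.14, adjusted p = 1.42e-07) at day 7. Podocyte markers, 8 genes, summed to 140 to 158 FPKM in controls, 74.4 to 106 at day 3 and 99.0 to 140 at day 7, and 5 of them fell at day 3 and 4 at day 7. Sema3b fell from 10.99 ± 1.77 to 7.77 ± 1.86 and 6.598 ± 0.542 FPKM, although its day 3 call ended without any 1 of control replicates 1 and 2 and day 3 replicates 1 and 3 (adjusted p 0.0565 to 0.115).

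Sema3d rose late. It was at 0.244, 0.290 and 0.505 FPKM in controls, 0.874, 0.634, 0.795 and 0.540 at day 3, and 3.11, 1.73, 1.95 and 2.97 at day 7. The 3 groups did not overlap. At day 7 it was higher than control by 1.33 (SE 0.15, adjusted p = 7.25e-06) and than day 3 by 0.99 (SE 0.14, adjusted p = 0.00101), while its day 3 value of 0.35 had an adjusted p of 0.0629. Sema3c, which patterns the heart's outflow vessels, rose at day 7 from 5.07 ± 1.301 to 8.53 ± 1.82 FPKM (0.65, adjusted p = 0.00712). Sema3f was 3.90 ± 1.01, 5.19 ± 0.383 and 4.65 ± 0.450 FPKM, and its day 3 call (0.36, adjusted p = 0.033) ended in 4 of the 7 fits that left out 1 control or day 3 library. Sema5a, at 2.19 ± 0.821, 2.05 ± 0.751 and 2.24 ± 0.271 FPKM, passed in no comparison. Sema3e, the ligand that binds plexin D1 without a neuropilin, was below the level tested: 0.510 to 0.766 FPKM in controls, 0.0346 to 0.116 at day 3 and 0.123 to 0.211 at day 7, with no overlap between the groups.

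Plexins carry the semaphorin signal into the cell through a domain that switches off small GTPases. All 8 were tested; 5 rose at day 3 and 6 at day 7, and 0 fell in either comparison, also at an unadjusted p under 0.05. The shares of plexins called, 62.5% and 75%, lay near the 65.3% and 69.8% of all genes. Over all genes, 21% fell at day 3 and 23.5% at day 7. After median centring Plxna2 and Plxnb2 at day 3 and Plxna2 and Plxna3 at day 7 no longer passed, and Plxnb1 became lower at day 7 (-0.58, adjusted p = 0.0112).

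Plxnd1, best known from endothelium, was at 4.02, 5.52 and 4.79 FPKM in controls, 18.5, 16.3, 20.3 and 19.7 at day 3, and 16.2, 19.5, 19.2 and 21.1 at day 7. The libraries after UUO were close to each other and far above the controls, with ratios of means of 3.92 at day 3 and 3.98 at day 7. The log2 fold change was 1.77 (SE 0.13, adjusted p = 2.98e-07) at day 3 and 1.79 (SE 0.13, adjusted p = 1.57e-07) at day 7. Of the 12 endothelial markers, 4 rose and 3 fell at day 3, and 2 rose and 2 fell at day 7.

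Plxnc1, the Sema7a receptor, measured 0.548, 0.452 and 0.543 FPKM in controls, 3.27, 3.48, 6.36 and 2.87 at day 3, and 3.00, 2.77, 3.53 and 3.37 at day 7. All libraries after UUO were above the controls, and the highest was day 3 replicate 3, the library with the highest macrophage sum. It rose by 1.67 (SE 0.18, adjusted p = 6.74e-06) at day 3 and 1.46 (SE 0.18, adjusted p = 1.67e-05) at day 7. With replicate 3 of both days left out, its day 3 value was 1.47.

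Plxna1 was at 2.92, 3.57 and 3.51 FPKM in controls, 7.74, 7.99, 9.94 and 10.8 at day 3, and 6.19, 10.9, 7.24 and 9.70 at day 7. Controls and UUO libraries did not overlap. It rose by 1.21 (SE 0.18, adjusted p = 6.6e-05) at day 3 and 1.11 (SE 0.18, adjusted p = 0.000117) at day 7. Plxna2 went from 0.967 ± 0.173 to 1.66 ± 0.181 and 1.77 ± 0.131 FPKM and passed on both days. Against control Plxna3 and Plxna4 passed at day 7 only, and both were higher at day 7 than at day 3: Plxna3 was at 0.498 ± 0.0759, 0.641 ± 0.0951 and 1.02 ± 0.126 FPKM. Plxna4, a partner of class 6 semaphorins, was at 0.550 ± 0.0924, 0.727 ± 0.0829 and 1.67 ± 0.190 FPKM, and was higher at day 7 than at day 3 by 0.63 (adjusted p = 0.000862).

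Among the Sema4d receptors, Plxnb2 had the highest plexin level, 39.2 ± 8.80 FPKM in controls, 59.8 ± 7.71 at day 3 and 45.4 ± 7.78 at day 7, and rose at day 3 (0.61, adjusted p = 0.00801). Plxnb1 was at 7.29 ± 0.691, 7.70 ± 2.00 and 5.87 ± 0.953 FPKM and passed in no comparison. Without day 3 replicate 3, its lowest library, it was lower at day 7 than at day 3 (-0.51, adjusted p = 0.0142).

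Neuropilins bind secreted semaphorins and forms of VEGF and have short tails. Nrp2 measured 1.15, 1.26 and 1.39 FPKM in controls, 7.14, 6.54, 10.0 and 7.29 at day 3, and 7.20, 8.30, 6.49 and 9.31 at day 7. Controls lay below every UUO library, with ratios of means of 6.13 and 6.19, and the days overlapped. The log2 fold change was 1.94 (SE 0.15, adjusted p = 4.31e-07) at day 3 and 1.95 (SE 0.15, adjusted p = 2.5e-07) at day 7. Nrp1 started higher and moved later: it was at 7.21 ± 1.05 FPKM in controls, 8.07 ± 1.29 at day 3 and 11.6 ± 1.49 at day 7. It rose at day 7 by 0.62 (adjusted p = 0.00209; 0.32 and adjusted p = 0.0721 after median centring) and not at day 3 (0.14, adjusted p = 0.413).

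**Figure D3:**
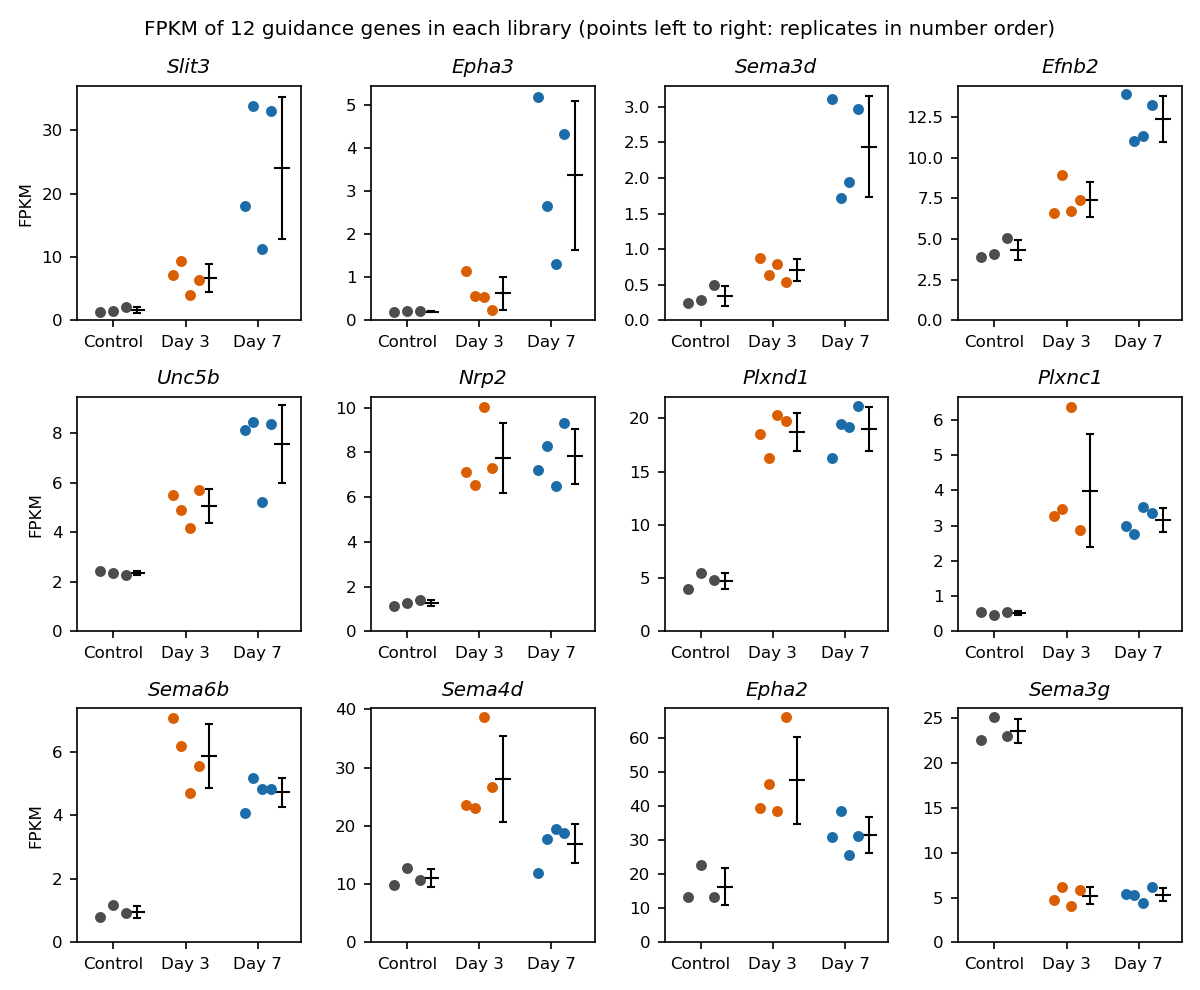
FPKM of 12 members in each library, with 1 point per library, black dashes for the group mean and bars for the SD (n = 3 controls, n = 4 on each day); each vertical axis starts at 0. Slit3, Epha3, Sema3d, Efnb2 and Unc5b are highest at day 7, Nrp2, Plxnd1, Plxnc1 and Sema6b are high on both days, Sema4d and Epha2 are highest at day 3, and Sema3g is highest in controls (22.6 to 25.1 FPKM).

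Ephrins are cell-bound ligands, the A class on lipid anchors and the B class through the membrane with a tail that can itself signal. Of 5 ephrin-A genes, 2 rose at day 3 and 3 at day 7; of 2 ephrin-B genes tested, 1 rose at day 3 and both at day 7; 0 of the 7 fell in either comparison, also at an unadjusted p under 0.05. Of all genes, 44.4% rose and 21% fell at day 3, and 46.3% rose and 23.5% fell at day 7. The shares called were 40% of ephrin-A and 50% of ephrin-B genes at day 3, beside 65.3% of all genes. At day 7 they were 60% and 100%, beside 69.8%. After median centring Efna5 at day 3 (adjusted p = 0.0639) and Efna4 at day 7 (adjusted p = 0.128) no longer passed.

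Efnb2, which marks arterial endothelium and is also made by mesenchymal cells, rose in steps. It was at 3.89, 4.06 and 5.05 FPKM in controls, 6.63, 8.93, 6.73 and 7.42 at day 3, and 13.9, 11.1, 11.4 and 13.2 at day 7. The 3 groups did not overlap. It rose by 0.66 (SE 0.13, adjusted p = 0.000798) at day 3 and 1.33 (SE 0.13, adjusted p = 2.19e-06) at day 7, and day 7 exceeded day 3 by 0.67 (SE 0.12, adjusted p = 0.00327). Efnb1 moved late, from 9.48 ± 0.944 and 10.8 ± 2.07 to 16.03 ± 2.17 FPKM, with 0.69 at day 7 against control (adjusted p = 0.00163). Efnb3 was under the level tested, at 0.101 to 0.140, 0.437 to 0.636 and 0.50003 to 0.811 FPKM, with controls below all other libraries.

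Efna2 was at 0.327, 0.227 and 0.316 FPKM in controls, 1.11, 1.37, 1.37 and 1.25 at day 3, and 2.31, 1.93, 1.73 and 2.67 at day 7. It too stepped up with no overlap between any 2 groups. The log2 fold change was 0.82 (SE 0.11, adjusted p = 4.04e-05) at day 3 and 1.28 (SE 0.11, adjusted p = 7.38e-07) at day 7. Efna5, a ligand of several EphA receptors, was at 2.43, 1.43 and 2.59 FPKM in controls, 4.37, 5.05, 3.17 and 3.97 at day 3, and 5.78, 4.44, 6.57 and 4.58 at day 7. Controls were lowest and the days overlapped. It rose by 0.71 (SE 0.18, adjusted p = 0.0034) at day 3 and 1.02 (SE 0.18, adjusted p = 0.000234) at day 7.

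Efna1 was the most abundant ephrin in controls and the most uneven between libraries. It was at 9.66, 17.8 and 10.3 FPKM in controls, 11.6, 26.5, 10.4 and 31.4 at day 3, and 19.98, 19.7, 9.96 and 8.999 at day 7. High and low libraries occurred in every group, and no comparison passed (0.53 at day 3, adjusted p = 0.264). Control replicate 2 and day 3 replicate 4, each the highest of its group for Efna1, also had the highest sums of the 10 injured epithelium markers in their groups (1034 and 1687 FPKM). At day 7 this did not hold: the highest such sum was in replicate 3 (1053 FPKM), where Efna1 was at 9.96 FPKM. Krt8 and Krt18 alone were at 435 and 356 FPKM in control replicate 2 and at 751 and 412 FPKM in day 3 replicate 4. Other markers went both ways. Of the controls, replicate 2 had the highest Lcn2 (8.04 FPKM) and the lowest Havcr1 (0.587 FPKM). At day 3, Sox9 was highest in replicate 4 (33.1 FPKM), but Havcr1 and Lcn2 in replicate 3 (77.2 and 176 FPKM). Efna3 was at 0.867 ± 0.514, 0.797 ± 0.121 and 1.19 ± 0.263 FPKM, and Efna4 at 2.73 ± 0.892, 3.82 ± 0.913 and 4.78 ± 0.956 FPKM, with a call for Efna4 at day 7 (0.64, adjusted p = 0.0109) that ended without control replicate 3. These 3 genes lie in a row on chromosome 3 on the same strand, Efna1 and Efna3 being 32757 bases and Efna3 and Efna4 10425 bases apart.

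Eph receptors are the largest family of receptor tyrosine kinases. Of 4 EphA genes 2 rose at day 3, and 3 rose and 1 fell at day 7; of 4 EphB genes tested 2 rose at day 3 and 3 at day 7. Over all genes tested, 44.4% rose and 21% fell at day 3, and 46.3% rose and 23.5% fell at day 7. After median centring Ephb3 at day 3 and Ephb2 at day 7 no longer passed, and Epha1 became lower at day 3 (-0.62, adjusted p = 0.00169).

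Epha3, a receptor found on mesenchymal cells, had the highest ratio of means at day 7 among members tested, 16.7, from a low starting level. It measured 0.183, 0.209 and 0.211 FPKM in controls, 1.15, 0.574, 0.533 and 0.244 at day 3, and 5.18, 2.64, 1.32 and 4.31 at day 7. The groups did not overlap, yet libraries of the same day differed severalfold, and replicate 3 was the lowest at day 7, as it was for fibroblast markers. It was called at day 7 (1.76, SE 0.28, adjusted p = 0.000116) and in day 7 against day 3 (1.36, SE 0.26, adjusted p = 0.00441), and its day 3 value was 0.41 (SE 0.28, adjusted p = 0.22). With replicate 3 of both days left out, the day 7 value was 2.04.

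Epha2, an epithelial receptor for ephrin-A1, was the most abundant Eph gene. It was at 13.2, 22.6 and 13.2 FPKM in controls, 39.5, 46.3, 38.5 and 65.9 at day 3, and 30.8, 38.4, 25.7 and 31.1 at day 7. All UUO libraries were above the controls, and control replicate 2 and day 3 replicate 4 were the highest of their groups, as for Efna1. It rose by 1.49 (SE 0.22, adjusted p = 8.24e-05) at day 3 and 0.93 (SE 0.22, adjusted p = 0.00242) at day 7. The 10 injured epithelium markers summed to 599 to 1034 FPKM in controls, 1080 to 1687 at day 3 and 875 to 1053 at day 7. Of them, 6 rose at day 3, and 5 rose and 2 fell at day 7. Krt8, Krt18, Epcam and Cdh1 held most of these sums. Mean Havcr1 went from 0.705 to 64.2 and 60.9 FPKM and Lcn2 from 6.57 to 144 and 89.4. Mean Epcam went from 119 to 95.1 and 67.5 FPKM and Cdh1 from 86.6 to 84.7 and 53.5. The part of these markers in the Epha2 rise was not tested. Epha4 rose on both days, from 0.834 ± 0.198 to 2.30 ± 0.511 and 2.21 ± 0.502 FPKM. Epha1 was at 3.497 ± 0.381, 2.73 ± 0.683 and 2.16 ± 0.251 FPKM and fell at day 7 (-0.51, adjusted p = 0.00843; -0.19 and adjusted p = 0.347 as TPM).

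Ephb3 measured 0.858, 1.16 and 1.23 FPKM in controls, 1.93, 2.56, 1.38 and 2.68 at day 3, and 3.49, 3.81, 2.74 and 4.74 at day 7. The 3 groups were in order with no overlap. It rose by 0.57 (adjusted p = 0.0114) at day 3 and 1.16 (SE 0.17, adjusted p = 7.13e-05) at day 7. Ephb6, which lacks kinase activity, was at 1.01, 1.73 and 0.808 FPKM in controls, 3.53, 2.82, 1.84 and 3.85 at day 3, and 3.33, 3.76, 3.48 and 3.37 at day 7. Controls were below every UUO library, the closest being control replicate 2 and day 3 replicate 3. It rose by 0.87 (SE 0.18, adjusted p = 0.00114) and 1.06 (SE 0.18, adjusted p = 0.000227). Ephb2 rose at day 7, from 1.18 ± 0.165 to 2.08 ± 0.554 FPKM (0.49, adjusted p = 0.00859). Ephb4, the venous receptor of ephrin-B2, was at 10.6 ± 0.863, 10.9 ± 1.82 and 11.9 ± 1.31 FPKM and passed in no comparison. Ephb1 was under the level tested, at 0.455 to 0.645, 0.399 to 0.445 and 0.299 to 0.437 FPKM, with controls above all other libraries.

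Slit3, a secreted ligand of Robo receptors, had the largest change of any member tested on the log2(FPKM + 1) scale. It was at 1.35, 1.45 and 2.15 FPKM in controls, 7.15, 9.40, 4.06 and 6.36 at day 3, and 18.03, 33.9, 11.3 and 33.1 at day 7. The groups rose in order without overlap, and replicate 3 was the lowest of its day both times, as it was for fibroblast markers. Ratios of means to control were 4.09 at day 3 and 14.6 at day 7. The log2 fold change was 1.51 (SE 0.34, adjusted p = 0.00175) at day 3, 3.13 (SE 0.34, adjusted p = 4.56e-06) at day 7 and 1.62 (SE 0.31, adjusted p = 0.00473) for day 7 against day 3. With replicate 3 of both days left out, the day 7 value was 3.43 (adjusted p = 6.85e-07). Slit2, its homologue, was at 1.89 ± 0.411, 1.35 ± 0.385 and 2.00 ± 0.412 FPKM and passed in no comparison; at day 3 it became lower after median centring (-0.63, adjusted p = 0.00264).

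Of 3 Robo genes tested, 2 rose at day 3, and 2 rose and 1 fell at day 7, where 65.3% and 69.8% of all genes were called. Robo1, a Slit receptor, rose from 0.494 ± 0.139 to 0.951 ± 0.160 and 1.79 ± 0.350 FPKM (0.39 with adjusted p = 0.0137 and 0.89 with adjusted p = 3.01e-05), and its day 3 call ended after median centring (adjusted p = 0.713) and without control replicate 2. Robo4, an endothelial family member, rose from 2.25 ± 0.515 to 4.50 ± 0.267 and 3.99 ± 0.388 FPKM (adjusted p = 0.000113 and 0.000477). Robo3 was at 0.789 ± 0.154, 0.714 ± 0.0902 and 0.482 ± 0.186 FPKM, and its day 7 call (-0.28, adjusted p = 0.0423) ended in 5 of the 7 fits that left out 1 control or day 7 library. Robo3 and Robo4 lie 554 bases apart on chromosome 9 on opposite strands. Robo2 was under the level tested, at 0.447 to 0.614 FPKM in controls and 0.131 to 0.345 FPKM over both days, with no overlap with controls.

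Netrins are laminin-related secreted cues. Ntn4, a basement membrane netrin, was at 15.4 ± 2.01, 29.6 ± 7.74 and 22.9 ± 2.75 FPKM and rose at day 3 (0.87, adjusted p = 0.00123) and at day 7 (0.54, adjusted p = 0.02), the latter ending after median centring (adjusted p = 0.234) and without control replicate 2 (adjusted p = 0.0834). Ntn1 was at 8.06 ± 0.864, 6.31 ± 2.28 and 7.54 ± 2.78 FPKM and passed in no comparison; at day 3 it was lower after median centring (-0.69, adjusted p = 0.039) and with the replicate block (-0.53, adjusted p = 0.00607). Ntng2, a membrane-anchored netrin of synapses, was at 1.35 ± 0.191, 0.842 ± 0.109 and 1.38 ± 0.110 FPKM, and its fall at day 3 (-0.35, adjusted p = 0.00612) ended as TPM (-0.19, adjusted p = 0.243).

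Unc5b, a netrin receptor known from endothelial tip cells, was at 2.44, 2.38 and 2.27 FPKM in controls, 5.50, 4.91, 4.16 and 5.73 at day 3, and 8.15, 8.48, 5.21 and 8.398 at day 7. Controls were close together and below every UUO library, and replicate 3 was the lowest of its day both times. It rose by 0.85 (SE 0.15, adjusted p = 0.00041) at day 3 and 1.33 (SE 0.15, adjusted p = 8.65e-06) at day 7. Unc5a, far lower, went from 0.226 ± 0.0713 to 0.690 ± 0.134 and 0.956 ± 0.287 FPKM and was called on both days; the day 3 call ended after median centring (adjusted p = 0.392) and the day 7 call after quantile normalization (adjusted p = 0.0752). Unc50, in the list by name only, was at 13.4 ± 0.816, 11.2 ± 0.514 and 12.9 ± 0.417 FPKM; its day 3 call (-0.24, adjusted p = 0.0404) ended as TPM, where its sign turned (0.17, adjusted p = 0.151), with the replicate block (adjusted p = 0.0668), with only the 2 groups fitted (adjusted p = 0.0921) and in 7 of 11 fits without 1 library (control replicates 1 and 3, day 3 replicates 1, 2 and 4, day 7 replicates 2 and 4).

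**Figure D4:**
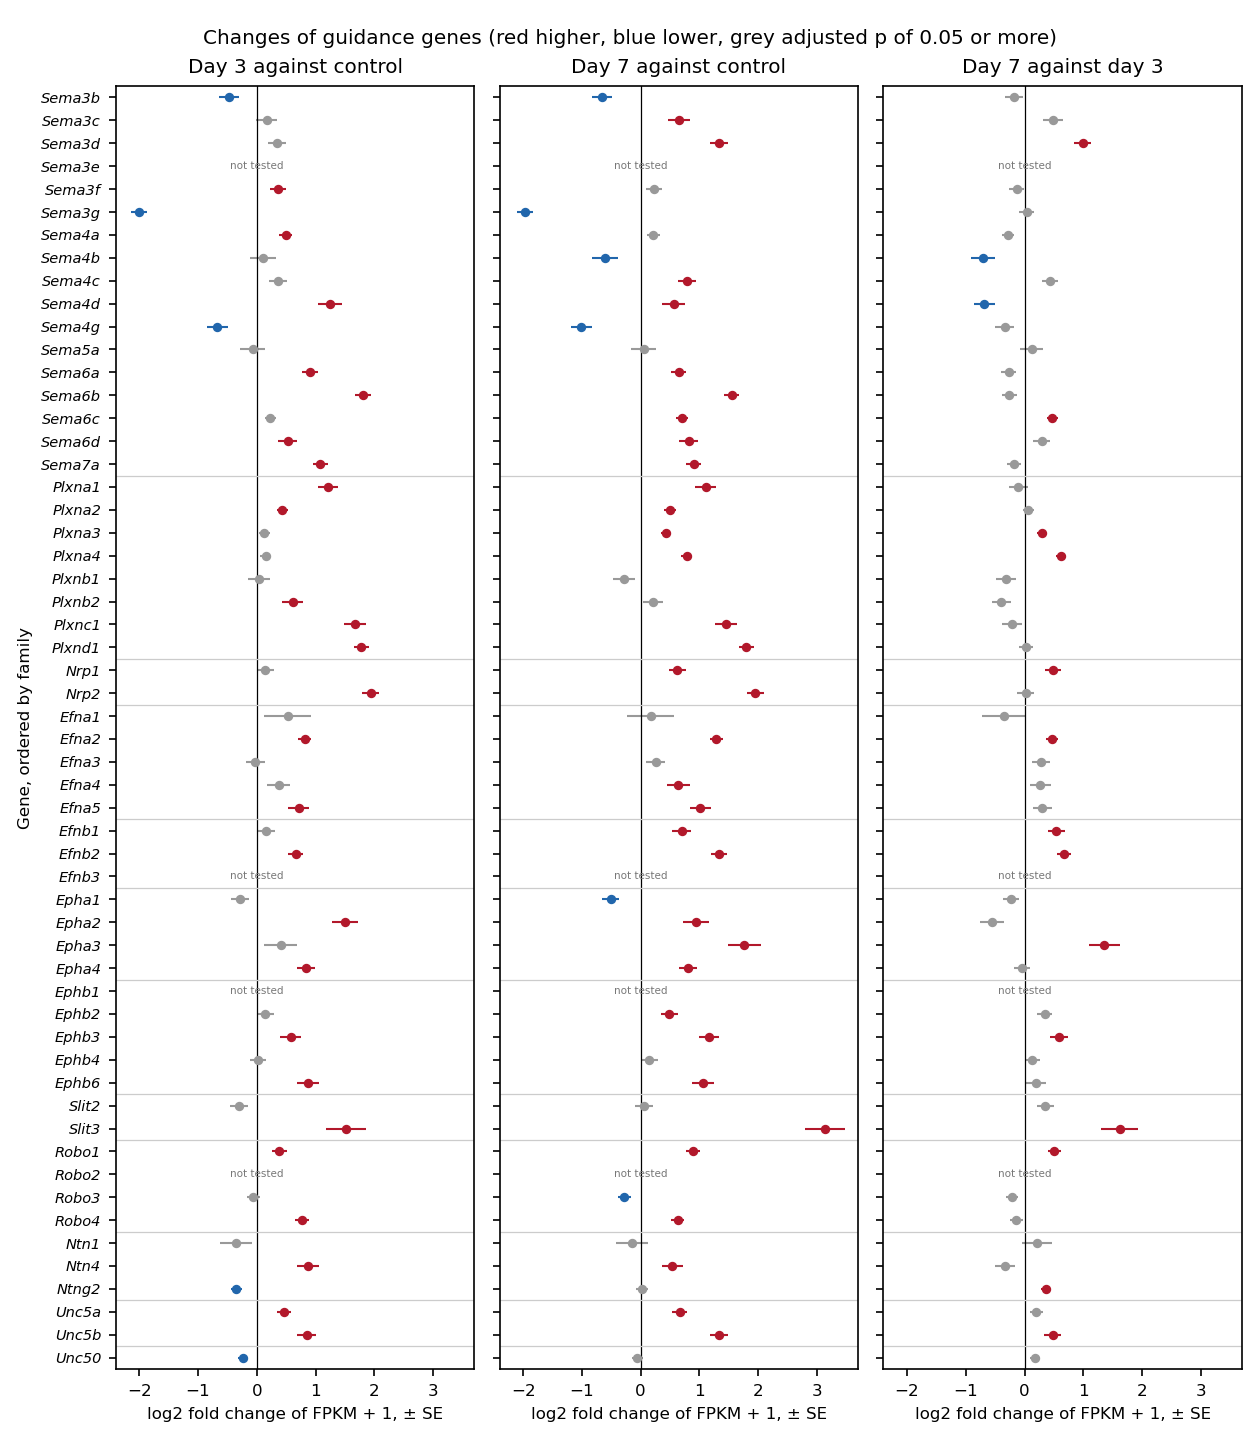
Log2 fold change of FPKM + 1 with its SE (bars) for each of the 52 members tested, genes in rows by family and the 3 comparisons side by side; red points were called higher, blue lower, and grey had an adjusted p of 0.05 or more. Slit3 at day 7 lies furthest right at 3.13 and Sema3g at day 3 furthest left at -2.002, and most red points of day 7 against day 3 lie under 1.

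Members known to bind each other were set side by side. Sema7a and Plxnc1 both rose on both days. Sema4d rose at day 3 with Plxnb2 and was lower again at day 7, when Plxnb2 had no call. Slit3 and Robo1 both rose on both days and were both higher at day 7 than at day 3 (1.62 and 0.51). The day 3 call of Robo1 ended after median centring, and Robo2, under the level tested, was below every control after UUO. Epha2 rose on both days, whereas its ligand Efna1 passed in no comparison. Likewise Unc5b rose on both days, whereas Ntn1 passed in no comparison. Sema6b and Plxna4 rose at day 7, the receptor without a call at day 3. Nrp2 rose while Sema3g fell, and Plxnd1 rose while Sema3e, under the level tested, was lowest at day 3. Efnb2 rose with Ephb3 on both days, whereas Ephb4 passed in neither comparison with control. These are levels in mixed RNA and do not say which cell held either partner.

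The change from day 3 to day 7 was called for 16 members. The 14 that were higher at day 7 were Slit3, Epha3, Sema3d, Efnb2, Plxna4, Ephb3, Efnb1, Robo1, Nrp1, Unc5b, Sema6c, Efna2, Ntng2 and Plxna3, with log2 differences from 1.62 down to 0.30. Differences of at least 1 were called for 2 of them, Slit3 and Epha3, where 3.69% of all genes reached that size. Sema4b and Sema4d were lower. The 8 of the 9 fibroblast markers that passed in this comparison were also higher at day 7, the macrophage sums of the days overlapped, and 11 of 12 proximal tubule markers were lower. The calls of Unc5b, Ephb3, Nrp1, Efnb1, Plxna3, Sema4b and Sema4d each ended when some single library was left out, with adjusted p up to 0.116, whereas those of Slit3, Epha3, Sema3d, Efnb2, Plxna4, Robo1, Sema6c and Efna2 held in every alternative in which they were tested. Without day 7 replicate 4 the count higher was 9, and without day 3 replicate 3 the count lower was 5. Replicate 3 was the lowest library for 29 of 56 members at day 3 and for 27 at day 7.

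Genes outside the name rule that act with these receptors were counted from a list by role. Of 78 such genes, 68 were listed and 66 tested. At day 3, 37 rose and 5 fell, with a median log2 fold change of 0.53, and at day 7, 43 rose and 6 fell, with a median of 0.63. The shares called, 63.6% and 74.2%, lay near the 65.3% and 69.8% of all genes. Over all genes, 44.4% rose and 21% fell at day 3, and 46.3% rose and 23.5% fell at day 7. After median centring the counts lower were 14 and 13. By role at day 7, 11 of 19 semaphorin co-receptors and signal proteins rose and 3 fell, 9 of 16 Eph signal proteins rose and 2 fell, 8 of 10 Slit and Robo signal proteins rose and 1 fell, all 3 netrin and RGM receptors and ligands rose, and 12 of 18 shared actin and kinase effectors rose and 0 fell, also at an unadjusted p under 0.05.

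Flrt3, an adhesion protein that binds Unc5 receptors and Robo1, was at 1.69 ± 0.0146 FPKM in controls, 14.3 ± 5.30 at day 3 and 16.8 ± 0.972 at day 7 (log2 fold changes 2.46 and 2.73, adjusted p = 4.61e-07 and 1.3e-07). Fes, a tyrosine kinase in semaphorin 3A signalling that is abundant in myeloid cells, rose from 1.70 ± 0.446 to 12.9 ± 0.620 and 11.6 ± 1.63 FPKM (2.38 and 2.23). Cd72, a Sema4d receptor of B cells, rose at day 3 by 2.34, from 3.96 ± 0.445 to 24.4 ± 4.29 FPKM. Dpysl3, a member of the CRMP family that relays semaphorin signals to microtubules, rose at day 7 by 3.58 (adjusted p = 4.89e-08), from 0.890 ± 0.106 to 22.4 ± 6.63 FPKM. The largest falls were those of Flrt1 (-1.34 at day 3 and -1.68 at day 7), of Ngef, the Eph-regulated exchange factor ephexin-1 (-1.07 and -1.43), and of Timd2, a Sema4a receptor (-0.58 and -1.48).

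The transcript table held 97 transcripts of 55 members and none for Robo3, and 82 of them passed the minimum level. Tested over all transcripts with limma in the same way, 26 member transcripts rose and 2 fell at day 3, where 41.2% of all transcripts were called, and 34 rose and 5 fell at day 7, where 45.6% were. At day 7 against day 3, 5 were higher and 0 lower (8 lower at an unadjusted p under 0.05), where 4.26% of all were called. Nrp2 had 4 transcripts, all higher on both days. Nrp2-202 and Nrp2-205 were the main ones, with 53.2% and 43.6% of the listed Nrp2 transcripts in controls and 41.0% and 41.8% at day 7. Nrp2-206 was listed at 0 in all 3 controls and was at 1.97, 1.70, 1.15 and 1.48 FPKM at day 3 and 1.15, 1.54, 1.47 and 1.03 FPKM at day 7, with every UUO library above every control. Shares are of listed transcripts and depend on how the authors' quantification divided fragments.

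Of 23 members with 2 or more transcripts listed, the most abundant one was the same in all groups for 16. It differed for Ephb2, Nrp2, Robo2, Sema4a, Sema4c, Sema4g and Sema6d. In Sema4a, Sema4a-214 led in controls and Sema4a-213 after UUO, but Sema4a-213 ranged from 0 to 7.42 FPKM over the controls and from 1.88 to 15.1 FPKM over the day 7 libraries. In Sema6d, Sema6d-205 was at 1.35, 1.497 and 1.77 FPKM in 3 day 3 libraries and listed at 0 in replicate 4, where Sema6d-203 was at 0.881 FPKM. Of the transcripts that led after UUO but not in controls, Nrp2-205 was called higher at day 3 (1.88, adjusted p = 5.52e-05) and at day 7 (1.81, adjusted p = 5.19e-05), Sema4a-213 at day 3 (2.21, adjusted p = 0.0322) and Ephb2-202 at day 7 (0.92, adjusted p = 0.00659).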

How the data were processed

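RNA from 11 samples was sequenced (Trizol RNA, KAPA stranded libraries, Illumina NovaSeq, per the labels' protocols), and groups and replicate numbers came from the sample titles. The authors deposited FPKM values per gene and per transcript, per the file headers. Tools named in the submitters' processing notes are cutadapt, HISAT2 and StringTie, with GRCm38 as build and without versions. No read counts could be recovered: among 910 low genes at most 0.808% shared 1 ratio between libraries within 0.1%, so depth and counting error are unknown. FPKM depends on what else is in a library, and the mitochondrial share and the median moved between groups.

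The values were taken as log2(FPKM + 1) without rescaling, and genes or transcripts with a mean of at least 0.5 FPKM were fitted in limma 3.58.1 (R 4.3.3), with all 3 groups, a mean-variance trend and Benjamini-Hochberg adjustment over all rows tested. The 3 comparisons were day 3 and day 7 against control and day 7 against day 3, and the first 2 share their controls. No library was a duplicate of another. The fit was tested on simulated data. Members, pathway genes, markers and tests were chosen with earlier results of these data known. Values in every library are given for members called with an absolute log2 fold change of at least 1 against control and for the 4 largest called differences between the days, plus Efna1, chosen after its values were seen; other members have group means. Of genes outside the rule, the 3 largest rises and falls per comparison with control are named. Alternatives covered the pseudocount, the filter, 4 scalings, the trend, the groups fitted, the replicate block and single libraries left out. Leaving out replicate 3 of both days was added after seeing the data.

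Deviations of same-numbered libraries from their group means correlated by 0.168, 0.428 and 0.166 for day 7 and control, where each of the 6 libraries matched its own number best; the labels give no origin for such a pairing. For the other comparisons some pairs were under 0.1 (-0.138 to 0.231 for day 3 and control, -0.0298 to 0.338 between the days). Promoters came from RefSeq (GRCm38.p6), and 48 members have the version and coordinates of GENCODE M21. Figures were drawn with matplotlib 3.10.9.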

Additional observations from a re-analysis of the deposited data

Results flagged for a closer look

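In 8 of 112 groups of 4 libraries (56 members on 2 days), 1 library stood far from the other 3 by Dixon's criterion. Chance alone flags about 1 of 20 groups, or 5.6 of these, so the number is near that. Day 3 replicate 3 was low for Ephb2 (1.066 FPKM), Ephb4 (8.159 FPKM), Efna4 (2.464 FPKM) and Plxnb1 (4.71 FPKM). Day 7 replicate 3 was low for Unc5b (5.215 FPKM) and Sema7a (9.032 FPKM). Day 7 replicate 4 was high for Robo4 (4.571 FPKM) and day 7 replicate 2 for Sema4b (8.121 FPKM). The same 2 replicate 3 libraries had the lowest fibroblast marker sums of their days, 478 and 1429 FPKM, and whether this bears on the low members was not tested.

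The effect of obstruction differed between the 2 days in limma's test of day 7 against day 3 for 16 members. The log2 differences of those higher at day 7 were 1.616 for Slit3, 1.357 for Epha3, 0.9887 for Sema3d, 0.6701 for Efnb2, 0.6256 for Plxna4, 0.5864 for Ephb3, 0.5396 for Efnb1, 0.5085 for Robo1, 0.4828 for Nrp1, 0.481 for Unc5b, 0.4754 for Sema6c, 0.4656 for Efna2, 0.3715 for Ntng2 and 0.3008 for Plxna3. Sema4b and Sema4d were lower at day 7, by -0.7105 and -0.6819.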

How the results depend on the processing

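Scaling moved the counts against control. At day 3, members higher and lower numbered 17 and 9 with median centring, 18 and 8 with quantile-normalized values and 40 and 1 as TPM, instead of 26 and 5, and at day 7 TPM gave 2 lower. Pathway genes lower at day 3 numbered 14, 13 and 2 in the same order, and at day 7 they were 13 with median centring and 12 with quantile normalization. Member transcripts lower were 8 at day 3 and 9 at day 7 after quantile normalization, and 1 and 2 as TPM. A minimum of 2 FPKM left 35 members, of which 21 rose at day 7 and 6 were higher at day 7 than at day 3; transcripts higher were then 22 and 2. Fitting only the 2 groups compared gave 3 members and 1 transcript lower at day 3 and 3 transcripts higher at day 7 against day 3. A pseudocount of 0.1, and a fit without the trend, gave 1 transcript lower at day 3, and no filter gave 8 transcripts lower at day 7. With no filter all 56 members were tested. Then 28 were higher and 7 lower at day 3, and 35 were higher and 9 lower at day 7.

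The replicate block left the member counts of day 7 against control at 34 higher and 6 lower with no call changed, gave 27 and 5 at day 3, where Ntn1 became lower, Sema4c higher and Unc50 lost its call, and gave 16 and 4 for day 7 against day 3, where Epha2 and Plxnb2 became lower and Ephb2 and Sema4c higher. At day 3 and between the days the samples share only a number: 2 of 6 and 3 of 8 libraries matched their own number best.

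With 1 library left out, genes called over the table ranged from 7957 to 8871 at day 3, 8694 to 9500 at day 7 and 1366 to 2599 for day 7 against day 3, lowest without day 7 replicate 4. Members higher ranged from 24 to 28, 32 to 36 and 9 to 15, and lower from 3 to 5, 4 to 6 and 0 to 5. Pathway genes higher ranged from 35 to 38, 40 to 43 and 5 to 10, and lower from 5 to 6, 6 to 7 and 1 to 4. Member transcripts higher ranged from 23 to 27, 27 to 36 and 2 to 8, and lower from 1 to 2, 3 to 5 and 0 to 0. Leaving out replicate 3 of both days, added after seeing the data, gave 28 higher and 3 lower members at day 3, 34 and 6 at day 7, 15 and 5 between the days, and 1 transcript lower between the days. Of 655 values of 30 named changes under these alternatives, 649 kept direction and call, none reversed, and the 6 others were Sema4b for day 7 against day 3 (-0.716 to -0.564, still lower). The cause of these shifts was not tested. Depth is unknown, so genes near 0.5 FPKM carry no stated counting error.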
